A study of Mus musculus with 20 samples.

Results

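The opening hours of adipocyte induction were read by setting 3T3-L1 cells 6 hours after they were given the MDI mixture against confluent cells that had not yet been given it. 3T3-L1 is an established mouse fibroblast line that turns into fat-storing cells when growth-arrested cultures receive inducing hormones. The comparison used 4 of the 20 arrays of the series, which followed 10 time points from preconfluent cells to day 28 on a pair of Affymetrix array types with mostly different probe sets, here array A and array B. Each time point was 1 sample on each array type. The confluent group was 3T3-L1 fibroblasts grown to confluence, and the 6 hour group was the same line collected 6 hours after induction. How long the cells had been confluent, the doses of the mixture and the time of its removal are not given in the sources used here. The labels name no uninduced culture collected at 6 hours, so the response to the mixture and other changes over these hours, such as those of a medium change, cannot be told apart.

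MDI stands for isobutylmethylxanthine, dexamethasone and insulin. Isobutylmethylxanthine blocks the phosphodiesterases that break down cyclic AMP, so that protein kinase A and the transcription factor CREB stay active. Dexamethasone binds the glucocorticoid receptor, which moves to the nucleus and acts on its target genes. Insulin, at high doses, also acts through the receptor for insulin-like growth factor. In 3T3-L1 cells the mixture is known to raise the early factors C/EBP-beta and C/EBP-delta within hours, to bring arrested cells back into the cell cycle, and only later to switch on PPAR-gamma, C/EBP-alpha and the genes of the fat cell.

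The values were linear intensities per probe set. Values below a floor, 136 on array A and 156 on array B, were set to it before taking log2. A probe set was past the rule when the samples differed 2-fold or more and the brighter value lay above 500. A gene was called higher or lower when at least 1 of its probe sets was past the rule and none with a value above 500 lay on the other side of 0. With 1 sample a side there was no replicate and no test, and every fold below describes these samples. A fold is written "at least" where the dimmer value lay at or below the floor. In bulk RNA, fewer cells expressing a gene and less RNA per cell cannot be told apart.

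The deposited values had been scaled to a common level, so the trimmed mean of 501 on all 4 arrays says nothing of the samples. In all, 1942 and 1908 probe sets of array A and 1711 and 1711 of array B lay above 500 in confluent cells and at 6 hours. Among probe sets above the limit, 63.1% on array A and 73.2% on array B differed by less than 1.5-fold. Without replicates, only the gaps between probe sets that measure the same gene could be gauged. Such probe sets read the same samples, so the gaps leave out the spread between cultures and between RNA preparations. For probe sets of the same gene, the median gap between their log2 differences was 0.31 over 247 pairs within an array type. It was 0.33 over 143 pairs between array types, and 9.72% and 11.2% of pairs lay more than 1 apart. No pair had its members past 2-fold in opposite directions. Some probe sets of a gene, here and below, hold the same sequence number in their names, so their agreement is not independent. How many pairs these make was not counted. Probe sets of the same name on both array types did not always agree. Those of Ccl4 and Selp, above 500 on both, are among the 143 pairs, and those of Fas are not. Ccl4 read 888 and 827 on array A and 883 and 297 on array B (log2 -0.10 and -1.57), Selp 620 and 390 on array A and 380 and 623 on array B (log2 -0.67 and 0.71), and Fas 336 and 112 on array A and 701 and 225 on array B (log2 -1.30 and -1.64). The 90th percentile of these gaps corresponded to 1.99-fold within and 2.06-fold between array types, so a 2-fold difference in 1 probe set is about the size of the wider gaps between probe sets of a gene. Among control probe sets above the limit, 1 of 15 on array A and 2 of 18 on array B were past 2-fold. The Gapdh controls above the limit were higher at 6 hours on array A (log2 0.48 to 0.76) and lower on array B (log2 -0.24 to -0.11). Those of beta-actin split the same way, at 0.09 to 0.34 and at -0.22 to -0.10, and the cause was not tested. For Gapdh, the 3-prime control divided by the 5-prime one, a sign of RNA quality, moved from 1.33 to 1.61 on array A and from 0.788 to 0.722 on array B. For beta-actin it moved from 1.48 to 1.39 and from 0.872 to 0.801, and the part of these ratios in the results was not tested.

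Of 2373 named genes with a probe set above 500, 218 were higher at 6 hours and 206 were lower, which is 9.19% and 8.68%. These shares are the background for the gene groups below. The groups were chosen with earlier results of these data known, so a share or median beyond the background may be partly built in. Such shares and medians describe the listed members and support nothing further. By array type, 8.75% of the probe sets above the limit were higher and 9.2% lower on array A, and 7.34% and 4.59% on array B. The median fold was 2.87 for the higher genes and 2.63 for the lower ones, with 59 and 35 genes past 4-fold. Most rested on 1 probe set: 33 of the higher and 25 of the lower genes had several above the limit, and in 14 and 10 of these at least 2 were past the rule. Most were also read from probe sets whose names carry a mark for related or shared sequences: 175 of the higher and 172 of the lower genes, of which 13 and 17 bear the mark for a gene family that is given beside the genes below. In 10 further genes the probe sets lay on both sides of 0 and no call was made. The median log2 difference over all 2373 genes was -0.04.

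**Figure D1:**
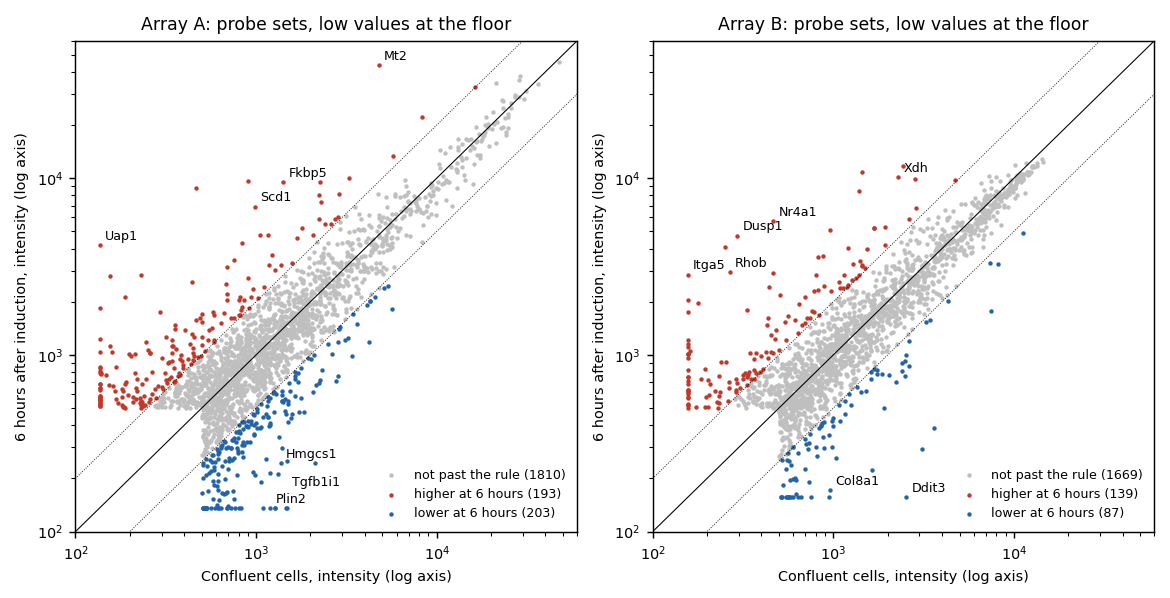
Each point is a probe set with a value above 500 in at least 1 sample, with its intensity in confluent cells on the horizontal axis and at 6 hours on the vertical axis, both logarithmic and with low values set to the floor. Red and blue points are past 2-fold (dotted lines), 193 higher and 203 lower on array A and 139 higher and 87 lower on array B, and most of the others lie close to the diagonal of equal values.

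The cells were still fibroblasts by their markers. Summed over 14 fibroblast markers, the intensity was 131875 in confluent cells and 121621 at 6 hours, and 3 of the 13 above the limit, Col3a1, Pdgfra and Pdgfrb, were lower. The 8 adipocyte markers summed to 1531 and 1325, against 101600 on day 4. Retn and Lipe, the 2 above the limit, were not past the rule (log2 0.21 and -0.34). Another 5 lay at or below the floor in both samples. Adipoq, the adipocyte hormone adiponectin, lay at 138 and 123, and the fatty acid carrier Fabp4, read from a probe set that the maker marks as able to bind related genes, at -20 and -64. The master regulators of fat cells were likewise at or near background, with Pparg at 68 and -38 and Cebpa at -84 and -26. Markers of other cells moved little: macrophage markers summed to 7208 and 8503, endothelial markers to 1806 and 2020, muscle markers to 7490 and 7248 and epithelial markers to 593 and 473, with 0 of their 10 members above the limit past the rule.

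The cyclic AMP response list, which holds targets and parts of the pathway itself, had the highest median of the lists. Of 9 members above the limit 6 (66.7%) were higher and 1 was lower, with a median log2 difference of 1.38. Nr4a1, an orphan nuclear receptor that CREB switches on, lay at 464 in confluent cells, 5730 at 6 hours, 2940 at 12 hours and 2590 at 24 hours, so that it was 12.3-fold higher at 6 hours. Rgs2, which shortens signals of G protein-coupled receptors, went from 442 to 2590 (5.86-fold), and Vegfa, the vascular growth factor, from 213 to 1010 (4.74-fold). Odc1, the entry enzyme of polyamine synthesis, stood at 586 and 1690 (2.88-fold) and Per1, a clock gene with sites for both CREB and the glucocorticoid receptor, at 666 and 1730 (2.60-fold). Thbd, the anticoagulant receptor thrombomodulin, was 2.06-fold higher, at 1330 and 2740. The lower member was Prkaca, the catalytic subunit of protein kinase A itself, with 1650 in confluent cells and 727 at 6 hours, its lowest value of the 10 samples (2.27-fold). Several classical targets were not above the limit: Crem lay at 43 and 149, Nr4a2 at 119 and 4, and the 3 probe sets of Ptgs2 at or below the floor in both samples.

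The glucocorticoid list was of similar size in its shift. Of 20 members above the limit 12 (60%) were higher and 2 were lower, with a median of 1.15, and 8 had their highest value of all 10 samples at 6 hours. Over all called genes, 107 of 218 higher ones (49.1%) were highest and 75 of 206 lower ones (36.4%) lowest at 6 hours. The rule asks for a high or low 6 hour value, so such extremes, here and below, partly follow from the choice. Dusp1, the phosphatase that switches off MAP kinases, lay at 293 in confluent cells, 4730 at 6 hours and 1830 at both 12 and 24 hours, a 16.1-fold difference at 6 hours. Fkbp5, a chaperone partner that holds back the glucocorticoid receptor, stood at 1410 and then at 9460, 5700 and 7640 (6.71-fold at 6 hours). Both were thus far above their confluent value, but Dusp1 was well under its 6 hour value by 12 hours, while Fkbp5 was at its highest, 10600, on a later day.

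Metallothionein Mt2, a metal-binding protein, reached 43500 from 4770 (9.12-fold), read from a probe set marked for a gene family. Its neighbour in function Mt1, on another such probe set, read 6230 and 5300 and was not past the rule. Lcn2, the iron-siderophore carrier lipocalin 2, went from 35 to 818 (at least 5.24-fold), and the glutamine synthetase gene Glul from -26 to 752 (at least 4.82-fold). Xdh, xanthine dehydrogenase, was 4.43-fold higher, at 2280 and 10100. Errfi1, an inhibitor of the epidermal growth factor receptor, stood at 1160 and 4760 (4.10-fold), and Ddit4, an inhibitor of the growth kinase mTOR, at 1200 and 4040 (3.37-fold). Il1r1, the interleukin 1 receptor, was 2.27-fold higher and Nfkbia, the inhibitor of NF-kappaB, 2.03-fold higher, in the latter on both of its probe sets (log2 1.01 and 1.02).

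Among members of the glucocorticoid list that were not past the rule, Sgk1, a kinase that regulates sodium transport, went from 376 to 668 (log2 0.83) and Anxa1, an anti-inflammatory annexin, from 7430 to 4920 (log2 -0.59). The lower members were Adamts1, a matrix protease, and Cdkn1a, the cell cycle inhibitor p21. Adamts1 read 5140 and 2380 (2.16-fold lower) against 2000 in preconfluent cells, so its 6 hour value lay between the values before induction. Cdkn1a went from 729 to -148 on array A (at least 5.36-fold lower) but from 1850 to 1760 on array B, both on family probe sets, and its call rests on the former alone. The receptor gene Nr3c1 was not above the limit, at 60 and -26.

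**Figure D2:**
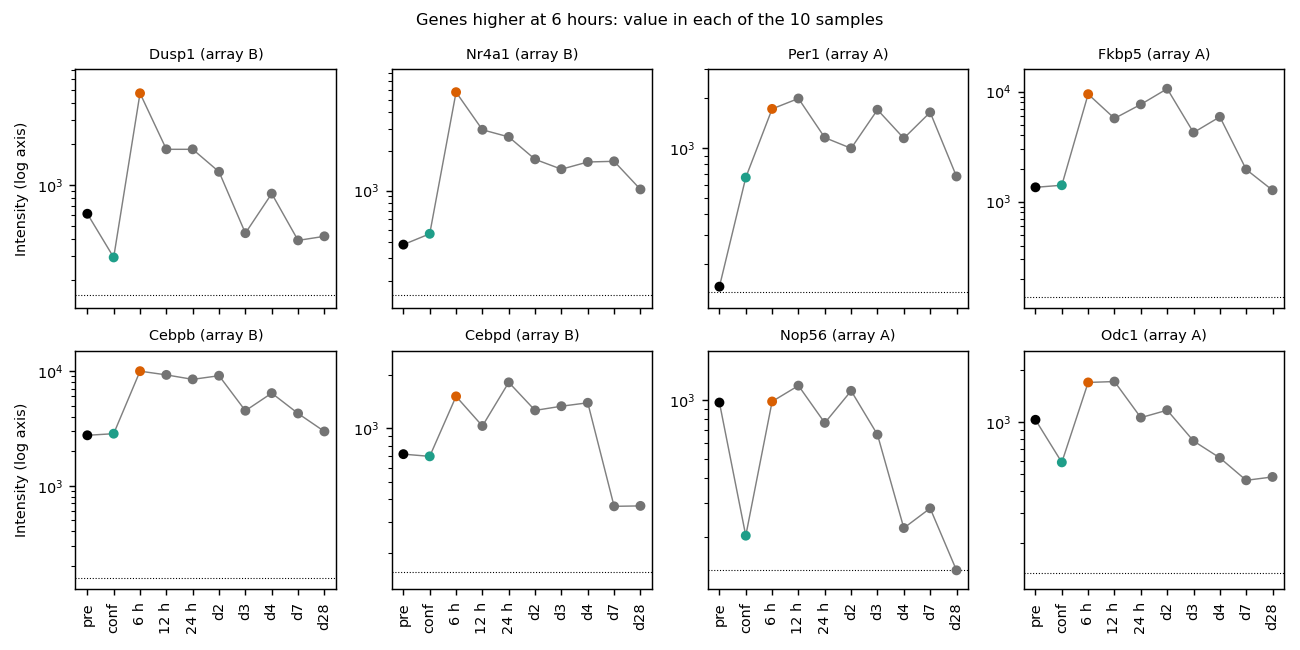
The intensity (vertical axis, logarithmic, low values at the floor shown as a dotted line) of 8 genes called higher at 6 hours is drawn for the 10 samples in order, 1 sample a point, with confluent cells in green and 6 hours in orange. Dusp1 and Nr4a1 have their highest value at 6 hours (4730 and 5730), Per1, Nop56 and Odc1 theirs at 12 hours, and in Nop56 and Odc1 the preconfluent value (968 and 1030) lies above the confluent one.

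Immediate early transcription factors, which growth signals switch on without new protein synthesis, were mixed. Of 11 above the limit 5 were higher and 2 lower, with a median of 0.36. Fosl1, an AP-1 subunit, was the furthest, with 9 and 1760 on array B (at least 11.3-fold) and a probe set on array A that gave -248 and 1850, or a log2 difference of 3.77 beside 3.50. Junb, another AP-1 subunit, went from 127 to 570 (at least 4.19-fold), the early response gene Ier3 from 694 to 2140 (3.08-fold), Klf2, a zinc finger factor of resting cells, from 218 to 621 (2.85-fold) and Ier2 from 230 to 503 (2.19-fold).

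Against preconfluent cells these factors look different. Fosl1 read 1240 there, Junb 832 and Ier2 569, so the 6 hour value of Junb and Ier2 was below that of growing cells, and the list's median was 0.03 against the preconfluent sample. Egr1, the growth factor-induced zinc finger factor, was lower, at 1720 in confluent cells and 477 at 6 hours (3.61-fold), and so was Btg2, an antiproliferative gene, at 558 and 254 (2.20-fold). The AP-1 subunits Jund, at 6680 and 6900 on a family probe set, and Fosl2, at 543 and 585, were not past the rule. Fos, Jun, Myc and Atf3 were not above the limit; Myc read 101 and 438 and Jun 258 and 449, while both Fos probe sets lay at or below the floor.

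Genes that damp kinase and G protein signals were higher in 5 of 11 cases and lower in 2, with a median of 0.71. Besides Dusp1, Rgs2, Errfi1 and Nfkbia, already given, these held Dusp6, a phosphatase of the kinase ERK, with 234 and 540 (2.31-fold). In the other direction stood Rgs16, with 961 and 461 (2.08-fold), and Ptpn1, the phosphatase of the insulin receptor, with 1050 and 386 (2.72-fold).

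Promoter sequences of 3 of these genes are shown because each holds, on either strand, the palindrome TGACGTCA, the full cyclic AMP response element to which CREB binds. They are the 250 bases before the transcription start from RefSeq on GRCm38.p6, written 5′ to 3′ on the gene's strand. Dusp1 lies at chr17:26508473-26508722 on the minus strand, Errfi1 at chr4:150854820-150855069 on the plus strand, for 1 of its 2 listed starts, and Btg2 at chr1:134079156-134079405 on the minus strand. Capitals mark the element and, in Dusp1, also the E-box CACGTG.
Dusp1: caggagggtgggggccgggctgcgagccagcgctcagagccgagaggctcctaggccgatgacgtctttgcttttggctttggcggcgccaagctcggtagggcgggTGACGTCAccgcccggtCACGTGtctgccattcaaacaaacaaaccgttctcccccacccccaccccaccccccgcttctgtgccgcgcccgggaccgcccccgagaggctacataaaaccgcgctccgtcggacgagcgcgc
Errfi1: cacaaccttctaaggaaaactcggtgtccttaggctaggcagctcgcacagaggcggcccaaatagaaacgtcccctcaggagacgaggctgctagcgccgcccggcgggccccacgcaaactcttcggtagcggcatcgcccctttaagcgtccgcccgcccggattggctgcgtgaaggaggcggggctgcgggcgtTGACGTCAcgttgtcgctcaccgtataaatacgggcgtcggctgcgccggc
Btg2: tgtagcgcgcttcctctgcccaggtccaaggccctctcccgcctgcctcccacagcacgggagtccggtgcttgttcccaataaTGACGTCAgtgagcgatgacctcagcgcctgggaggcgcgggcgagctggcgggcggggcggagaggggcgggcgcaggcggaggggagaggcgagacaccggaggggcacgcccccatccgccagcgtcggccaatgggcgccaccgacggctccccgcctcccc
The element ended 136 bases before the start in Dusp1, 44 in Errfi1 and 159 in Btg2. Dusp1 and Errfi1 were higher at 6 hours and Btg2 was lower, so a matching element went with both directions.

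Counted over the windows of 300 bases around the start, the full element stood in 2.03% of 27025 genes of the promoter table, in 4 of 172 higher genes (2.33%), in 6 of 170 lower genes (3.53%) and in 3.70% of 1569 genes above the limit that were not past the rule. The higher genes with it were Dusp1, Errfi1, Cycs, the electron carrier cytochrome c, and Purb, a single-strand DNA-binding repressor. The full palindromic glucocorticoid response element was in 0 higher and 0 lower genes and in 3 of all genes. The E-box CACGTG stood in 11.6% of the higher, 19.4% of the lower and 13.3% of the remaining genes above the limit, against 8.09% of all. All motifs were searched on both strands, and the E-box can overlap an end of the cyclic AMP element. The AP-1 site TGACTCA stood in 6.40%, 3.53%, 5.04% and 5.95% of the same groups. The CArG box, bound by serum response factor, stood in 2.33%, 4.12%, 1.78% and 1.81%. A match is a run of letters and not a measured site.

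Of the early adipogenic factors 3 of 9 were higher and 1 was lower, with a median of 0.11. Cebpb, which encodes C/EBP-beta, stood at 2840 in confluent cells, 9960 at 6 hours, 9240 at 12 hours and 8450 at 24 hours (3.51-fold at 6 hours). Cebpd, for C/EBP-delta, stood at 696, 1510, 1030 and 1810 over the same samples (2.17-fold at 6 hours). Cebpb thus had its highest value of the series at 6 hours, and Cebpd at 24 hours. Xbp1, a factor of the secretory pathway that C/EBP-beta can switch on, was 2.28-fold higher (500 and 1140). Nfib, a nuclear factor I protein, was 2.20-fold lower (1520 and 690). Stat3, a cytokine-activated factor, was not past the rule at 3690 and 4540.

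Among late factors and fat cell genes, of 10 above the limit 1 was higher and 1 lower, with a median of -0.12. The higher one was Scd1, the desaturase that makes monounsaturated fatty acids, at 987 in confluent cells, 6890 at 6 hours and 7590 at 12 hours (6.98-fold at 6 hours), with later values from 12800 upwards. Plin2, a coat protein of lipid droplets, was at least 8.82-fold lower, with 1200 in confluent cells, 41 at 6 hours, 103 at 12 hours and 945 at 24 hours, before values of 1890 to 6010 from day 2 on. Fasn, fatty acid synthase, went from 2060 to 2890 (log2 0.49) and was not past the rule.

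In the list drawn up for inhibitors of adipogenesis 4 of 17 members were higher and 4 lower, with a median of -0.10. The role of each member in adipogenesis was not tested. Id2 and Id1, which bind and block helix-loop-helix factors, went from 823 to 3560 (4.33-fold) and from 2860 to 6780 (2.37-fold), and both had their highest value of the series at 6 hours. Msx1, a homeobox repressor, stood at 256 and 908 (3.55-fold). Id3 was on the same side but not past the rule, at 898 and 1660 (log2 0.89). Dlk1, the preadipocyte factor Pref-1, read 7910 and 6730 and Hes1, a Notch target, 895 and 499, neither past the rule.

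Ddit3, which encodes CHOP, a C/EBP-family protein that blocks C/EBP-beta, was the lowest gene of the comparison relative to confluent cells. It read 575 in preconfluent cells, 2540 in confluent cells and -729, -781 and -571 at 6, 12 and 24 hours, at least 16.3-fold lower at 6 hours, and later values ran up to 8190. The mesenchymal transcription factors Twist1 and Snai2 were also lower, from 1640 to 585 (2.80-fold) and from 1150 to 511 (2.25-fold). Pdgfra, the platelet-derived growth factor receptor alpha, went from 975 to 353 (2.76-fold lower), but its preconfluent value was 192.

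**Figure D3:**
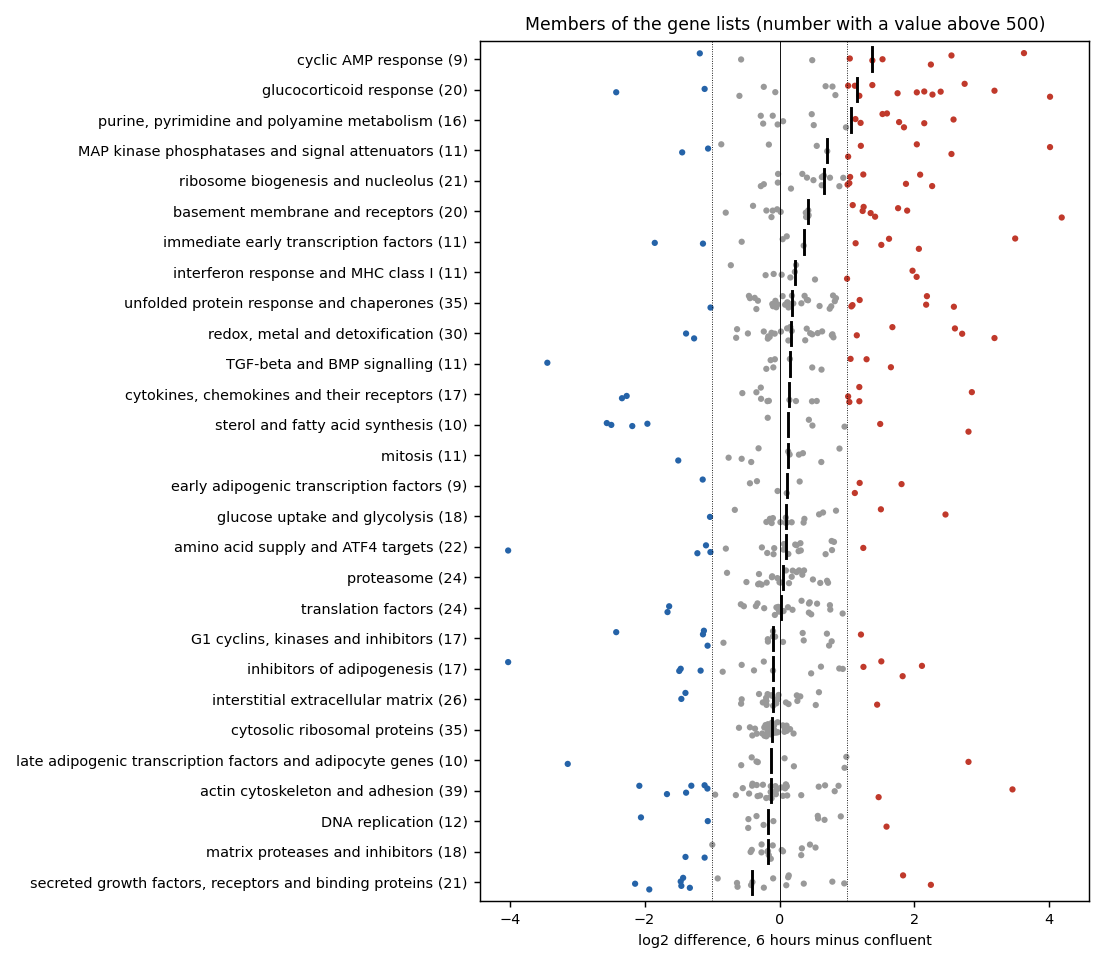
Each row is a gene list with at least 9 members above 500, each point is a member placed at its log2 difference between 6 hours and confluent cells, red or blue where called higher or lower, and the black bar is the median. The lists run from the cyclic AMP response (median 1.38) at the top to secreted growth factors and receptors (median -0.40) at the bottom, while the 35 ribosomal proteins stay between -0.60 and 0.21.

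Of 21 ribosome biogenesis genes above the limit 7 (33.3%) were higher and 0 lower. The median was 0.66, with 17 members above 0 and 4 below, and stood at 0.86 at 12 hours. Nop56, a core protein of the particles that methylate ribosomal RNA, went from 204 to 980 (4.80-fold), Nolc1, a nucleolar chaperone read from a family probe set, from 252 to 1070 (4.25-fold) and Nop16 from 191 to 701 (3.67-fold). Ebna1bp2 was 2.37-fold higher, with both of its probe sets past the rule, though their names hold the same sequence number. Bop1, Pa2g4 and Gnl3 were between 2.01-fold and 2.07-fold higher. Nucleolin (Ncl), at 3320 and 5240, and fibrillarin (Fbl), at 1730 and 2670, were on the same side and short of the limit.

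For this list the baseline decides the direction. In preconfluent cells, which were growing, Nop56 read 968, Nolc1 1060, Ebna1bp2 1510, Gnl3 1600 and Ncl 6420, and the list's median at 6 hours was -0.26 against that sample, which shares the 6 hour value. The 6 hour level of ribosome biogenesis genes thus lay above confluent cells and near or below growing ones. Other parts of the translation apparatus showed less difference in their RNA: 0 of 35 cytosolic ribosomal protein genes were past the rule (median -0.11), and of 24 translation factors 0 were higher and 2 lower. These were Eif4b, an initiation factor (5660 and 1820 on the brighter of its probe sets, 3.11-fold), and Eif2b4, a subunit of the exchange factor for eIF2 (582 and 184, 3.16-fold, against 12 in preconfluent cells). Both Eif4b probe sets were past the rule, though their names hold the same sequence number.

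In purine, pyrimidine and polyamine metabolism 8 of 16 genes (50%) were higher and 0 lower, with a median of 1.06 against confluent and 0.37 against preconfluent cells. Cad, which carries out the opening steps of pyrimidine synthesis, read -85 and 814 (at least 5.99-fold) and then 1240 at 12 hours. Srm, spermidine synthase, read 2230 and 8020 (3.60-fold) on a family probe set, and Uck2, a kinase that salvages uridine and cytidine, 462 and 1580 (3.42-fold). Odc1, given above and of the same polyamine pathway as Srm, was also among the higher genes. Ampd3, which deaminates AMP, was 3.02-fold, Impdh1, of guanine nucleotide synthesis, 2.30-fold and Prps1, which makes the ribose donor of nucleotides, 2.18-fold higher, the last with a further probe set at a log2 difference of 0.62. Impdh1 and Prps1 were below their preconfluent values of 560 and 693 at 6 hours, with 534 and 513. Aprt, which salvages adenine, was just under the limit (313 and 620, 1.98-fold), and Hprt, which salvages guanine, stood at 713 and 665.

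Genes for copying DNA and for dividing were not higher as groups at this time. Of 12 DNA replication genes 1 was higher and 2 lower (median -0.16), and of 11 mitosis genes 0 were higher and 1 lower (median 0.13). Both lists stood below growing cells, with medians of -0.81 and -1.04 against the preconfluent sample, and above confluent cells at 24 hours, at 0.63 and 1.31. The higher gene was Rrm2, the S phase subunit of the enzyme that makes deoxynucleotides, with 579 and 1740 on its brightest probe set (3.01-fold, marked for a family) and with log2 differences up to 2.69 on others. Lig1, the ligase that joins replication fragments, read 694 in confluent cells, 167 at 6 hours, 483 at 12 hours and 1190 at 24 hours (4.16-fold lower at 6 hours). Anln, needed for cytokinesis and read from a family probe set, followed a like course, with 708, 250, 873 and 3320 (2.83-fold lower). Both thus dipped at 6 hours below either sample taken before induction.

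Among the G1 regulators 1 of 17 was higher and 4 lower, with a median of -0.10. Ccnd3, cyclin D3, was higher at 2060 and 4760 (2.31-fold), with its other probe set at a log2 difference of 0.93. The other D cyclins were not past the rule: Ccnd1 read 2640 and 2470 on a family probe set and Ccnd2 4550 and 4040, and their kinase Cdk4 read 3790 and 2130 (log2 -0.83). The 4 lower genes all restrain the cycle. They were Cdkn1a, past the rule on array A alone, and Btg2, both given above, Cdkn1b, the inhibitor p27, at 1190 and 568 (2.10-fold), and Cdkn2c, the inhibitor p18, at 1710 and 786 (2.18-fold). Cdkn1b was at 523 in preconfluent cells, so 6 hours returned it to that level, while the 6 hour value of Cdkn2c was its lowest of the series.

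Of the genes for basement membrane and its receptors 8 of 20 (40%) were higher and 0 lower, with a median of 0.43 (0.55 against preconfluent cells). Its main collagen chains Col4a1 and Col4a2 went from 5700 to 13400 (2.35-fold) and from 8270 to 22100 (2.67-fold) and were higher still at 12 hours, at 16500 and 26900. Lamc1, a laminin chain, stood at 1280 and 3040 (2.38-fold). Among receptors for matrix, Itga5, the fibronectin receptor subunit, was among the furthest genes of all, with 802 in preconfluent cells, -3 in confluent cells, 2840 at 6 hours and 1630 at 12 hours (at least 18.2-fold). Cell-surface proteoglycans were higher too, Sdc1 3.72-fold (436 and 1620) and Sdc4 2.12-fold (2600 and 5520). Cd44, the hyaluronan receptor, at 100 and 528, and Itga6, a laminin receptor subunit, at 288 and 735, were at least 3.38-fold and 2.55-fold higher, but below their preconfluent values of 705 and 877. Itgb1, the partner chain of these integrins, read 6480 and 6040, and the linker nidogen Nid1 2920 and 2850.

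Interstitial matrix had 1 of 26 genes higher and 2 lower, shares below the background, and a median of -0.10 against confluent and 0.54 against preconfluent cells. Vcan, the large proteoglycan versican, went from 1180 to 3220 (2.73-fold) with a further probe set at a log2 difference of 0.52. Ogn, a small leucine-rich proteoglycan, went from 1070 to 390 and Col3a1 from 1010 to 384, but both had been lower still in preconfluent cells, at 53 and 233, and the other Col3a1 probe set gave -0.18. Of 18 matrix proteases and inhibitors 0 were higher and 2 lower, Adamts1 and Plat, the tissue plasminogen activator, the latter from 1170 to 445 against 407 in preconfluent cells.

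The actin and adhesion genes were lower in 6 of 39 cases and higher in 2, with a median of -0.13. Marcks, which tethers actin to the membrane, was lower on each of its 3 probe sets, with log2 differences from -3.13 to -1.84 and 7480 and 1770 on the brightest. Tpm1, a tropomyosin, went from 4580 to 2120 and on to 738 at 12 hours, Cnn3, a calponin, from 4260 to 2030 and 1390, and Fhl2, a cofactor at focal adhesions, from 1550 to 626 and 604. Tln1, talin, was 3.18-fold lower on a family probe set, while its other probe set gave -0.22, and Cdh2, N-cadherin, was 2.61-fold lower. The higher genes were Rhob, a short-lived small GTPase, at 267 and 2930 (11.0-fold) and 740 by 12 hours, and Actn1, alpha-actinin, at 183 and 507 with 618 in preconfluent cells. Tgfb1i1, a focal adhesion cofactor also called Hic-5, was at least 10.9-fold lower, at 1480 and -190.

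In the list of secreted growth factors, receptors and related genes 6 of 21 members were lower and 2 higher. Its median of -0.40 was the lowest of the lists against confluent cells. The lower members were Pdgfra, Pdgfrb, Vegfd, Gas1, Gas2 and Ogn, of which Vegfd alone is a secreted growth factor. Against preconfluent cells, with the same 6 hour sample, the median was 0.03. Pdgfrb, the beta receptor for platelet-derived growth factor, read 1710 in preconfluent cells, 1900 in confluent cells and 498, 320 and 387 at 6, 12 and 24 hours (3.82-fold lower at 6 hours). The growth arrest genes Gas2, at 1130 and 256, and Gas1, at 8170 and 3250, were 4.41-fold and 2.51-fold lower, and Vegfd, a lymphatic growth factor, 2.69-fold lower, at 2500 and 928. Igfbp4, which binds insulin-like growth factors, was higher on both of its probe sets, 3.56-fold on the brightest, which is marked for a family. In TGF-beta and BMP signalling 3 of 11 were higher and 1, Tgfb1i1, was lower, with a median of 0.15. Fst, the activin antagonist follistatin, stood at 1670 and 5250 (3.14-fold), Nbl1, a BMP antagonist, at 239 and 585 (2.45-fold) and Tsc22d1, a leucine zipper protein induced by TGF-beta, at 4720 and 9800 (2.08-fold). The antagonists Fst and Nbl1 both had their highest value of the series at 6 hours.

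Cytokine genes went both ways, with 5 of 17 higher and 2 lower and a median of 0.15. The chemokines Ccl2 and Ccl7, which draw monocytes, were at least 5.05-fold and at least 4.81-fold lower, Ccl7 from 751 to 69, and Ccl2 lay below 0 in all 8 samples after induction. Cx3cl1, the membrane-bound chemokine fractalkine, was 7.23-fold higher, at 155 and 1120, with its other probe set at a log2 difference of 1.47. The receptors Il1r1, already given, and Tnfrsf1b, the type II receptor of tumour necrosis factor, were each 2.27-fold higher, the latter at 265 and 602, while a further probe set of Tnfrsf1b read 126 and 131. Tnfaip2, induced by tumour necrosis factor, was 2.05-fold higher. Cxcl12, at 5660 and 4670, and Csf1, the macrophage growth factor, at 1360 and 928, were not past the rule at 6 hours, and Csf1 read 119 at 12 hours.

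In the interferon list 3 of 11 genes were higher and 0 lower, with a median of 0.23, 8 members above 0 and 3 below. A further 23 members, Isg15 and Ifit1 among them, were not above the limit. Irf1 (log2 -0.72), Irf7 (0.16), Mx2 (0.53) and B2m (-0.09) were not past the rule, and the probe sets of H2-K1 disagreed. The receptor chains Ifnar1, at 54 and 557 (at least 4.10-fold), and Ifngr1, at 351 and 703 (2.00-fold), were higher, as was Ifi204, an interferon-induced gene, at 54 and 534 on a family probe set.

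Of 10 genes for making sterols and fatty acids 4 were lower (40%) and 2 higher, with a median of 0.13 against confluent and -0.24 against preconfluent cells. The lower ones were 3 enzymes of sterol synthesis and 1 of the pentose phosphate pathway. Hmgcs1, which makes hydroxymethylglutaryl-CoA, read 2050 in preconfluent cells, 1370 in confluent cells, 243 at 6 hours, 520 at 12 hours and 839 at 24 hours, or 5.64-fold lower at 6 hours. Idi1, which makes the isoprene unit dimethylallyl diphosphate, read 618, 121, 630 and 523 from confluent cells to 24 hours (at least 4.54-fold lower at 6 hours). Fdft1, squalene synthase, went from 1840 to 473 (3.89-fold). Both Hmgcs1 and Idi1 had their lowest value of the series at 6 hours. Sqle, squalene epoxidase, was on the same side, at 443 and 46, but not above the limit of 500, and Lss, lanosterol synthase, read 1140 and 1010. The remaining lower member was Tkt, transketolase of the pentose phosphate pathway, at 803 and 119 and then at 1290 by 24 hours.

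On the fatty acid side, Scd1, given above, and Elovl1, which lengthens saturated chains (451 and 1270, 2.82-fold), were higher, and Scd2 was just short of the limit, at 2900 and 5660 (1.95-fold). Of the 172 higher and 170 lower genes with a promoter in the table, the classical sterol regulatory element stood only in the window of Clcn7, a lysosomal chloride channel that was lower. That element stood in 27 of all 27025 genes.

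**Figure D4:**
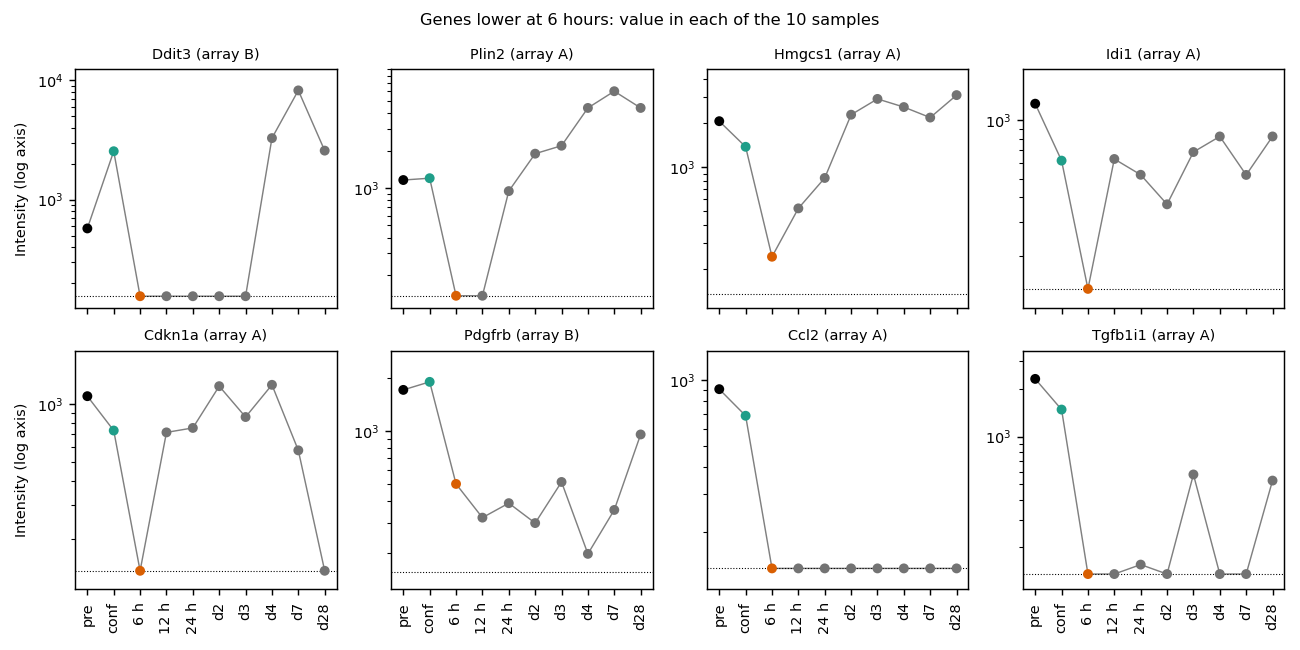
The intensity (vertical axis, logarithmic, low values at the floor shown as a dotted line) of 8 genes called lower at 6 hours is drawn for the 10 samples in order, 1 sample a point, with confluent cells in green and 6 hours in orange. Hmgcs1 and Idi1 are lowest at 6 hours and were higher again by 12 hours (520 and 630), whereas Ccl2 stays at the floor from 6 hours to day 28. Cdkn1a is drawn from array A, and its array B probe set was not past the rule.

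Among stress and folding genes 6 of 35 were higher and 1 lower, with a median of 0.18. The heat shock genes Hspb1, a small chaperone, at 293 and 1760 (6.01-fold), and Hsph1, a partner of Hsp70, at 693 and 3130 (4.52-fold), and Manf, a secreted protein of the endoplasmic reticulum stress response, at 1050 and 4780 (4.55-fold), had their highest value of the series at 6 hours. Xbp1, given above, Cct6a, of the chaperonin that folds actin and tubulin, at 1490 and 3120, and Dnajc3, an inhibitor of eIF2 kinases, at 374 and 792, were the others, the last with a further probe set at 0.01. Hspa5, the main chaperone of the endoplasmic reticulum, went from 2180 to 4350 on array A, just short of 2-fold, and from 5340 to 7160 on array B, both on family probe sets. Hspa9, the mitochondrial Hsp70, was 2.03-fold lower.

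Of 22 genes of amino acid supply and the ATF4 response 4 were lower and 1 higher. The median was 0.10 against confluent and -0.49 against preconfluent cells, with 13 members above 0 and 9 below in the former. Atf4, the factor that drives this response, stood at 4280 and 2010 (2.13-fold lower), and beside Ddit3 the tRNA synthetases Sars, at 791 and 340, and Aars, at 2930 and 1440, were lower. Slc1a5, a glutamine transporter, was higher at 862 and 2040 (2.37-fold). Of the redox group 5 of 30 were higher and 2 lower (median 0.17). Besides Mt2 these were Gclc, the limiting enzyme of glutathione synthesis, on both of its probe sets (159 and 1040 on the brightest, 6.54-fold), Srxn1, which repairs peroxiredoxins, at 1390 and 8440 (6.07-fold), Gsto1, a glutathione transferase, at 2290 and 7310 (3.19-fold), and Sod2, the mitochondrial superoxide dismutase, at 1450 and 3210 (2.21-fold). Lower were Hmox1, heme oxygenase, at 2640 and 1010 (2.61-fold), and Cat, catalase, at 616 and 256 (2.41-fold).

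In glucose metabolism 2 of 18 were higher and 1 lower, shares near the background. Hk2, hexokinase 2, stood at 818 and 2320 (2.84-fold) and Slc16a1, the lactate transporter, at 441 and 2430 (5.51-fold), with its probe set on array A at a log2 difference of 2.03. Pygb, glycogen phosphorylase, was 2.04-fold lower. The proteasome had 0 of 24 past the rule (median 0.06).

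The furthest higher gene of all lay outside the lists. Uap1, which makes the sugar donor UDP-N-acetylglucosamine, read 192 in preconfluent cells, 67 in confluent cells, 4170 at 6 hours, 1360 at 12 hours and 799 at 24 hours (at least 30.7-fold at 6 hours). Prr5, a component of the kinase complex mTORC2, read 155 and 2790 (18.0-fold), Samhd1, which breaks down deoxynucleotides, 231 and 2850 (12.3-fold), and Prkce, protein kinase C epsilon, 187 and 2120 (11.3-fold). All 4 had their highest value of the series at 6 hours, which the choice of the furthest genes at that time favours. Rit1, a Ras-like GTPase, went from 70 to 1040 (at least 7.65-fold), Ctla2a, a cysteine protease inhibitor, from 1450 to 10800 (7.45-fold) and the gap junction gene Gja1, connexin 43, from 121 to 1150 (at least 7.37-fold).

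At the other end outside the lists, Bnip1, of endoplasmic reticulum membrane fusion, read 1470 in confluent cells, 111 at 6 hours and 611 at 12 hours (at least 10.8-fold lower). Ssbp4, of a DNA-binding cofactor family, read 1270, 122 and 1260 (at least 9.34-fold) and Rnf220, a ubiquitin ligase, 821, -81 and 1090 (at least 6.04-fold), so by 12 hours Ssbp4 was near and Rnf220 above the confluent value. Nrep, on a pair of family probe sets in agreement (log2 -3.39 and -3.21), read 3590 and 388 on the brightest but 190 in preconfluent cells. Ralgds, an activator of Ral GTPases, was at least 8.01-fold lower, F3, tissue factor, 6.23-fold (1320 and 212), Tead2, a partner of YAP, 5.91-fold (1490 and 252), Anxa7, an annexin, 5.61-fold, Npepl1, a peptidase, at least 5.60-fold, and Col8a1, a short-chain collagen, 5.60-fold (958 and 171).

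The course of the called genes over the series was also followed. The median intensity of the 218 higher genes was 595 in preconfluent cells, 352 in confluent cells, 1059.95 at 6 hours, 864 at 12 hours, 701 at 24 hours and 506 on day 28. For the 206 lower genes it was 701.5, 959, 349, 513, 632 and 594 in the same samples. Of the higher genes 107 (49.1%) had the highest of their 10 values at 6 hours and 29 (13.3%) at 12 hours, and of the lower genes 75 (36.4%) had their lowest at 6 hours. Among genes not past the rule, 10.6% had their highest and 5.93% their lowest value at 6 hours. Since the rule asks for a high or low 6 hour value, values nearer to the middle in other samples follow from the choice, and these medians and shares describe the chosen genes and support nothing further.

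**Figure D5:**
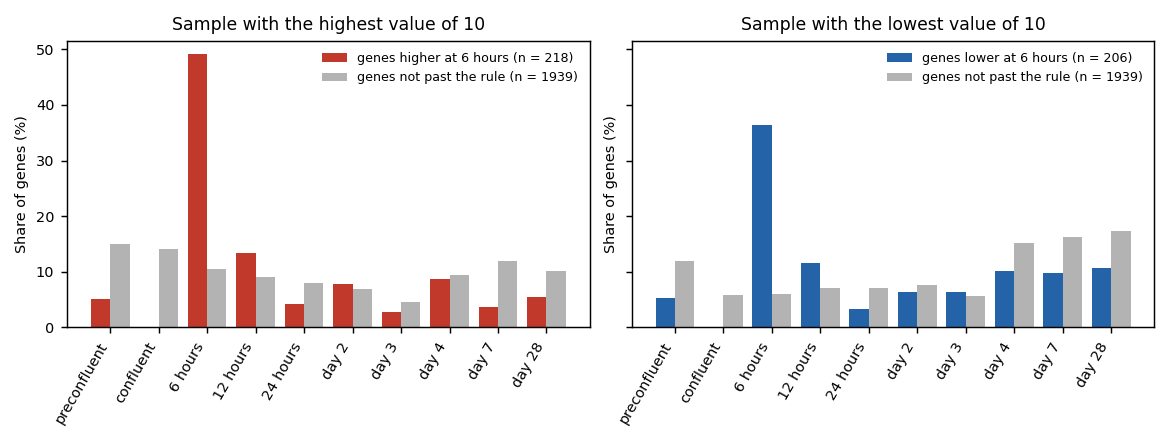
Bars give the share of genes (vertical axis, percent) whose highest value (left) or lowest value (right) of the 10 samples falls in each sample, for the 218 higher and 206 lower genes in colour and for the 1939 genes not past the rule in grey. At 6 hours the bars reach 49.1% and 36.4%, and the bars at confluent cells are 0 in colour because the rule excludes them.

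The confluent sample is 1 of a pair taken before induction, and the preconfluent one gives another baseline with the same 6 hour sample. Against it 252 genes were higher and 238 lower, and 121 of the 218 higher and 72 of the 206 lower genes kept their call. Genes far from both samples before induction included Nr4a1, Dusp1, Fkbp5, Mt2, Errfi1, Cebpb, Uap1, Scd1 and Hspb1 on the higher side and Plin2, Pdgfrb, Hmgcs1, Fdft1 and Ccl2 on the lower side. In contrast, Junb, Ier2, Cd44, Itga6, Gnl3, Pa2g4, Prps1, Impdh1, Rrm2 and Actn1 were above confluent but below preconfluent cells at 6 hours. Ogn, Nrep, Pdgfra, Col3a1, Eif2b4, Adamts1, Plat and Cdkn1b were below confluent but above preconfluent cells.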

How the data were processed

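Total RNA was extracted with Trizol and 10 µg of it was labelled with biotin and hybridised after the array maker's protocol, per the labels. The authors deposited 1 linear intensity per probe set, scaled to a common level of about 501; the software behind this is not given in the sources used here. Control probe sets (55 on each array type) were left out, which left 6529 on array A and 6540 on array B. The floors, 136 and 156, are the 10th percentile of each array type with its sign turned. Names came from the platform annotation, matched to RefSeq by gene ID: 5541 and 2001 probe sets had 1 symbol, and the others stayed unnamed. A gene was read from the probe set with the highest mean of the 2 samples among those past the rule, called its brightest. Named genes were the 15 furthest in each direction, members of 29 pathway and 6 marker lists past the rule, and up to 5 further members a list chosen for their role. The members and lists were chosen with earlier results of these data known. Genes read from family probe sets also include Igfbp4, Ifi204, Srm, Crat and Cycs. Values were computed with Python 3.11.15, pandas 2.3.3 and numpy 2.4.6. The procedure was also run on simulated data with 4-fold changes in bright probe sets alone. That run does not gauge calls near 2-fold or near the floor. Alternatives were other floors, limits, folds, scalings, baselines and probe set choices; leaving out probe sets marked _f_at was chosen after seeing the data. The number of arrays limits the precision.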

Additional observations from a re-analysis of the deposited data

How the results depend on the processing

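With 1 sample a side no replicate could be left out. No paired analysis was possible because each group holds 1 sample on each array type. The counts below are genes higher and lower, then probe sets higher and lower on array A and on array B, against 218 and 206, 193 and 203, and 139 and 87. A limit of 300 in place of 500 gave 322 and 335, 314 and 334, and 190 and 147, and a limit of 1000 gave 117 and 97, 96 and 89, and 80 and 37. A fold of 1.5 gave 421 and 438, 396 and 424, and 273 and 235, and a fold of 3 gave 102 and 80, 92 and 75, and 58 and 33. Leaving out every probe set with a family or shared mark, which covers 4457 of 6529 on array A and 5459 of 6540 on array B, gave 48 and 36, 46 and 39, and 10 and 9, and the fewer probe sets tested lower these counts by construction. Of the named genes, 15 of 85 higher and 3 of 57 lower ones kept a call there. Without the _f_at sets alone the gene counts were 207 and 190. Quantile normalization gave 223 and 208, centring on the median 231 and 190, the brightest probe set alone 206 and 197, and a doubled floor 193 and 187. With the preconfluent sample as the baseline, 168 probe sets of array B were lower, and the log2 difference turned sign in Actn1 (-0.29), Adamts1 (0.25), Cd44 (-0.42), Cdkn1b (0.12), Col3a1 (0.72), Eif2b4 (0.44), Gnl3 (-0.44), Ier2 (-0.18), Impdh1 (-0.069), Itga6 (-0.25), Junb (-0.55), Nrep (1.03), Ogn (1.52), Pa2g4 (-0.49), Plat (0.13), Pdgfra (0.88), Prps1 (-0.43) and Rrm2 (-0.89). The mean of both samples before induction gave 195 and 146 genes and turned Ogn (0.032). Of the 85 higher and 57 lower genes named by the rule, 58 and 25 kept their call with the preconfluent baseline and 67 and 32 with the mean. The cause of these changes with the baseline was not tested.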

Other observations

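Some further called genes lay outside the lists and were chosen after their values were seen, so they stand for no group. Mcl1, which protects against cell death, stood at 357 in confluent cells and 1470 at 6 hours (4.12-fold), and Bag3, a partner of Hsp70, at 687 and 2040 (2.97-fold). The death-promoting relative Bcl2l11 was lower, at 796 and 286 (2.78-fold). Snai1, a repressor of epithelial genes, was 3.97-fold higher, at 257 and 1020, in contrast to Snai2 and to Zeb1, which was 2.58-fold lower, at 1450 and 561. Hmga2, a chromatin protein of growing mesenchymal cells, read 5030 in preconfluent cells, 953 in confluent cells, 5060 at 6 hours and 749 at 24 hours. Slc6a6, the taurine transporter, was at 3260 and 10000 (3.07-fold), and the zinc transporters Slc30a4 and Slc30a5 were 2.60-fold and 2.15-fold higher beside Mt2. Top1, topoisomerase I, went from 2880 to 8180 (2.84-fold) and Ptges, which makes prostaglandin E2, from 1070 to 2570 (2.40-fold).

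A further 4 lower genes were picked after their values were seen because they were lowest at 6 hours and highest on day 4 or day 28, and how common that is was not counted. Idh1, the cytosolic isocitrate dehydrogenase, read 2860 in confluent cells, 755 at 6 hours and 3140 at 24 hours, and Scp2, a lipid carrier of peroxisomes, 1440, 480 and 1430. Akt2, a kinase of insulin signalling, read 581, -50 and 340, and was at least 3.72-fold lower at 6 hours. Crat, carnitine acetyltransferase, was 2.43-fold lower, at 1090 and 448 on a family probe set.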
